A study of Homo sapiens with 16 samples.

Results

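The comparison pooled every array of the study by whether the cells had been given SMYD2. All 16 arrays entered it, 8 with SMYD2 and 8 without. SAOS, an established human osteosarcoma line that has no working RB protein of its own, was used throughout, and RNA from each sample was read on 1 Affymetrix array. The 8 arrays without SMYD2 were 4 of control cells, which were not transfected, and 4 of cells transiently transfected with human RB. The 8 arrays with SMYD2 were 4 of cells transfected with mouse SMYD2 and 4 of cells transfected with both constructs. These groups are called control, RB, SMYD2 and RB plus SMYD2. Each group held replicates 1, 3, 4 and 5, so that every array with SMYD2 had a partner with the same number and the same RB status, which gave 8 pairs.

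The labels name no empty vector, so the 4 pairs of SMYD2 with control differ in transfection as well as in SMYD2. In the 4 pairs of RB plus SMYD2 with RB, both members were transfected. The labels do not say that the replicates were separate cultures, so the p-values cover no more than the spread between these 16 samples, and that spread may be technical. Values are log2 signals, and a difference is the mean with SMYD2 minus the mean without it. An additive limma model held RB status and replicate number fixed while it estimated the difference for 19775 genes, each read from its brightest probe set.

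SMYD2 is a lysine methyltransferase that acts on histones and on other proteins, RB among them. RB binds E2F transcription factors and holds down the genes of DNA replication, and together with its relatives and the DREAM complex it holds down those of mitosis. Promoters of many mitotic genes carry a short element called CHR, near the transcription start, through which DREAM and the activator B-MYB bind, often with CCAAT boxes upstream.

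Windows upstream of 4 such genes are shown because these genes had lower signals with SMYD2 in all 8 pairs and carry the CHR letters TTTGAA, in capitals. The sequences are from RefSeq (GRCh38.p14), written 5′ to 3′, and each ends at the base before the annotated start of the gene.
HMMR, chr5:163460552-163460631, + strand: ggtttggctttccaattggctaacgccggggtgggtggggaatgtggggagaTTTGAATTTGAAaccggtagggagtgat
KIF23, chr15:69414269-69414348, + strand: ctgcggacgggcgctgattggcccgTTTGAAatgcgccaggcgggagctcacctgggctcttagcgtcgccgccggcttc
KIF4A, chrX:70290024-70290103, + strand: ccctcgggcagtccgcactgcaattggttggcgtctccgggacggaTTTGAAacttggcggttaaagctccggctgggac
BUB1B, chr15:40160989-40161068, + strand: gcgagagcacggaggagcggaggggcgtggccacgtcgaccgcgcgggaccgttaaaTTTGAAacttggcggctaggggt
HMMR encodes a spindle assembly factor, KIF23 a kinesin of cytokinesis, KIF4A a chromosome-bound kinesin and BUB1B a spindle checkpoint kinase. HMMR holds the letters in 2 adjoining copies and the other genes hold 1 copy each. The nearest copy starts 22 bases before the gene in HMMR, 55 in KIF23, 34 in KIF4A and 23 in BUB1B.

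In the pooled comparison no gene passed. The limma fit called 0 of 19775 genes at an adjusted p under 0.05 (0% of those tested), and its smallest adjusted p was 0.254, for CXCL13. At an unadjusted p under 0.05 there were 1421 genes, 7.19% of those tested, against about 989 by chance. Of these, 673 were lower with SMYD2 (3.4%) and 748 higher (3.78%). Differences were small, with a median of 0.01 and a median standard error of 0.06. Only RB1 and NPTX2, a neuronal pentraxin, differed by more than 0.5, and neither passed (0.66 ± 0.17 and 0.51 ± 0.18, SE, limma adjusted p = 0.642 for both).

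The fit was repeated without SMYD2 array 1, which stood apart. The ratio of 3′ to 5′ signal of its ACTB control probe sets, which grows as RNA degrades, was 3.53 (log2). Control array 1 read 2.46, and the other 14 arrays lay between 0.54 and 1.63. Over the 8 pairs this ratio was 0.19 higher with SMYD2 (exact two-sided sign-flip permutation p = 0.406), by 0.46 in the pairs without RB and by -0.07 in those with it. The same ratio for GAPDH varied far less. It was 0.16 on SMYD2 array 1, the highest of the 16, and 0.06 on control array 1, below the mean of 0.07. Without SMYD2 array 1 limma again called 0 genes (0%), with 1156 at an unadjusted p under 0.05 (5.85%) and a smallest adjusted p of 0.158, again for CXCL13. The 7 measured osteoblast markers of SAOS were bright, between 10.03 and 13.54. The 27 markers of epithelial, blood, endothelial, neural, muscle, fat and liver cells lay between 3.71 and 9.74, with KRT18 and EPCAM the brightest, and their median difference was 0.01. None of the 27 had an unadjusted p under 0.05 in the fit of all 16 arrays.

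The constructs themselves were read unevenly. RB1 was read by 2 probe sets. The brighter one gave 6.24, 6.49, 6.27 and 6.93 in control replicates 1, 3, 4 and 5, and 6.89, 6.59, 6.98 and 6.92 with SMYD2. It gave 7.40, 7.43, 8.10 and 7.87 with RB, and 7.90, 7.90, 9.25 and 9.62 with RB plus SMYD2. RB1 was therefore higher with SMYD2 in 7 of 8 pairs, and by most in replicates 4 and 5 of the cells given RB, where RB plus SMYD2 exceeded RB by 1.14 and 1.75. Its pooled difference was 0.66 ± 0.57 (SD over 8 pairs, exact two-sided sign-flip permutation p = 0.0156, 0.0508 after Benjamini-Hochberg adjustment over 13 such checks). It was 0.36 in the pairs without RB and 0.97 in the pairs with it. The dimmer RB1 probe set, at 3.47 on average, differed by 0.01 (exact permutation p = 0.789).

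SMYD2 was read by 3 probe sets, which did not move together. The brightest was higher in all 8 pairs, by 0.12 on average and by 0.01 to 0.31 in single pairs. A dimmer SMYD2 probe set was lower in all 8, by 0.12 on average (for each, exact sign-flip permutation p = 0.0078, two-sided, below which 8 pairs cannot go, and 0.0508 adjusted over the 13 checks). The third differed by -0.05. The transfected gene was the mouse one and the probes are human, so these readings check no label. L3MBTL1, a reader of methylated lysines in chromatin, was covered by 6 probe sets. The brightest, at 6.55 on average, differed by 0.12 and was higher in 5 of 8 pairs (exact sign-flip permutation p = 0.117, 0.254 adjusted over the 13 checks). The next, at 6.37, differed by 0.20 and was higher in 7 of 8 (exact permutation p = 0.0156, 0.0508 adjusted). A dim one at 4.05 differed by 0.12 and was higher in 6 of 8 (exact permutation p = 0.0469, 0.122 adjusted). Differences of the other 3 were 0.06, 0.002 and -0.03, with exact permutation p-values of 0.336 or more, so that the 6 did not move alike and none had an adjusted p under 0.05.

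**Figure D1:**
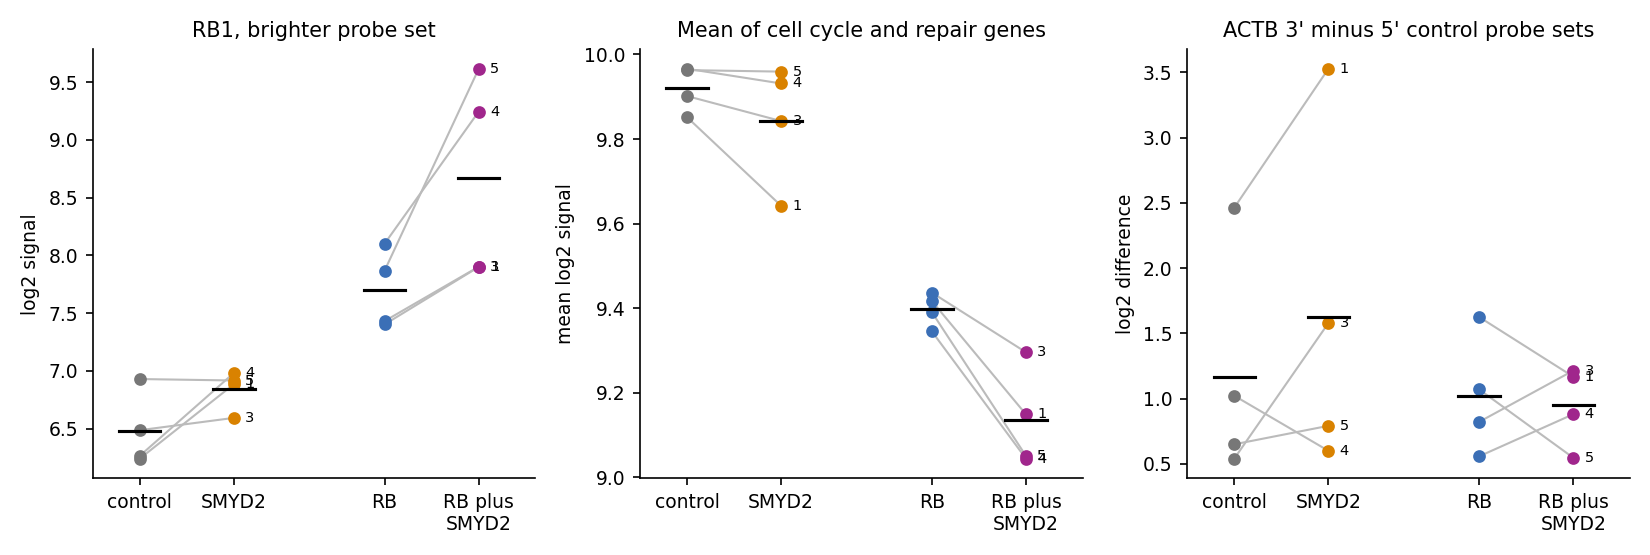
Log2 signal of the brighter RB1 probe set (left), mean log2 signal of the 213 cell cycle and repair genes (middle) and log2 ratio of 3′ to 5′ ACTB control signal (right) on each of the 16 arrays. Points are arrays, small numbers are replicate numbers, grey lines join arrays of the same number and RB status, and black bars are group means; the y axes do not start at 0. The cell cycle mean is lower with SMYD2 in all 8 pairs, RB1 is highest in replicates 4 and 5 of RB plus SMYD2, and the ACTB ratio is highest on SMYD2 array 1.

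Genes of the cell cycle lay lower with SMYD2 as a body, although none passed the test. In 8 lists of replication, cyclin, mitosis, condensin and repair genes, 213 genes were measured. Of these, 199 had a lower mean signal with SMYD2, against 45% of all genes tested, and their median difference was -0.17. At an unadjusted p under 0.05, 124 were lower and 0 higher, where 3.4% and 3.78% of all genes were. Lower in all 8 pairs were 22 of them, where 0.809% of all genes were. These lists were drawn up with earlier results of the same arrays known, and the counts describe them without testing them.

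The shift was not even over the pairs. The median difference of the 213 genes was -0.28 in the cells given RB and -0.06 in those without. In the RB pairs it was -0.27, -0.15, -0.33 and -0.35 for replicates 1, 3, 4 and 5. Without RB it was -0.16, -0.05, -0.04 and 0.01. The cells given RB thus showed it in every pair, and those without RB showed it mainly in replicate 1, the pair that holds SMYD2 array 1. RB1 itself read higher with SMYD2 by 0.50, 0.47, 1.14 and 1.75 in those RB pairs, and by 0.65, 0.11, 0.72 and -0.01 in the pairs without RB. The part of the RB1 level and of RNA integrity in the shift was not tested. Without SMYD2 array 1 the median of the 213 genes was -0.15 and 201 were lower. Without SMYD2 array 1 and control array 1 together, a setting chosen after seeing the data, it was -0.17 and 200 were lower. Taken at each RB level, limma called 0 genes for SMYD2 without RB (0%, 868 at an unadjusted p under 0.05, 4.39%) and 0 with RB (0%, 1236, 6.25%). It also called 0 genes for a difference between the SMYD2 effects with and without RB (0%, 786 at an unadjusted p under 0.05, 3.97%, smallest adjusted p 0.993).

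**Figure D2:**
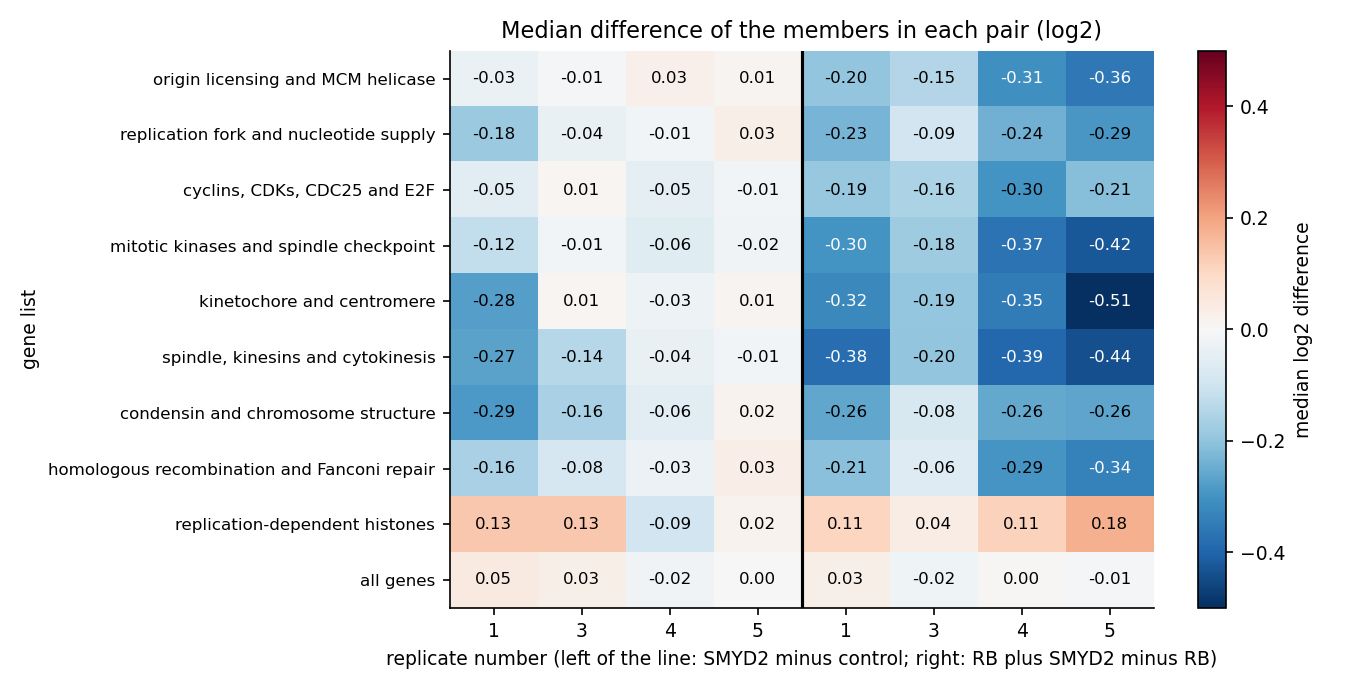
Median log2 difference, with SMYD2 minus without, over the measured members of each cell cycle and histone list and over all genes (rows) in each of the 8 pairs (columns, by replicate number). Left of the line are SMYD2 minus control and right of it RB plus SMYD2 minus RB; blue is lower with SMYD2 and red higher. The 8 cell cycle and repair lists are below 0 in every RB pair, and without RB they lie between -0.29 and 0.03.

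Among the genes that prepare DNA for replication, all 20 of origin licensing and the MCM helicase had lower means with SMYD2, with a median of -0.11, and 7 had an unadjusted p under 0.05. MCM10, which acts in origin firing, differed by -0.36 ± 0.12 and was lower in 6 of 8 pairs. DBF4, the activating subunit of the CDC7 kinase, differed by -0.26 ± 0.08 and was lower in all 8. Its pair differences ran from -0.69, in the pair of SMYD2 array 1, to -0.01, in the pair of SMYD2 array 3. ORC1, a subunit of the origin recognition complex, differed by -0.26 ± 0.08, and CDC6, which loads the helicase, by -0.25 ± 0.13. The split by RB was wide here, with a list median of 0.00 without RB and -0.25 with it. Of 31 genes of the replication fork and nucleotide supply, 30 were lower, with a median of -0.14, and 17 had an unadjusted p under 0.05. CLSPN, the checkpoint mediator claspin, differed by -0.38 ± 0.10, the clamp loader subunit RFC3 by -0.29 ± 0.11, the fork protein WDHD1 by -0.25 ± 0.07 and RRM2, a subunit of ribonucleotide reductase, by -0.24 ± 0.09. RFC3 had 2 of 3 probe sets on that side, the dimmest differing by 0.01.

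Most genes of the cyclin and CDK machinery were lower as well, with exceptions among G1 cyclins and DREAM subunits. Of 32 genes of cyclins, CDKs, CDC25 phosphatases and E2F factors, 26 were lower and 13 had an unadjusted p under 0.05, with a median of -0.11. The repressor E2F8 differed by -0.32 ± 0.11, the S phase and G2 cyclin CCNA2 by -0.31 ± 0.09, CDK1, the kinase of mitotic entry, by -0.30 ± 0.12 and its partner CCNB1 by -0.29 ± 0.13, and these 4 were lower in all 8 pairs. CDK1 differed by -0.66, -0.50, -0.02 and -0.01 without RB (replicates 1, 3, 4 and 5), and by -0.20, -0.48, -0.45 and -0.07 with it. CDK1 had 3 of 4 probe sets on that side, the dimmest differing by 0.02. CCNB1 depended on 1 pair. It read 11.27, 11.62, 11.47 and 11.53 in control, 10.17, 11.59, 11.47 and 11.49 with SMYD2, 10.74, 10.89, 10.72 and 10.75 with RB, and 10.56, 10.72, 10.26 and 10.41 with RB plus SMYD2. SMYD2 array 1 was thus far below its 3 group mates, which were within 0.04 of their control partners, and without that array the pooled CCNB1 difference was -0.15. The members that were not lower were E2F1 (0.04), E2F4 (0.07), LIN37 (0.00), LIN54 (0.01) and the G1 cyclins CCND1 (0.06) and CCND2 (0.04), which are named here after their values were seen. E2F4 and the LIN genes encode parts of the DREAM complex.

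The largest list medians were those of mitosis. Of 30 genes of the spindle, kinesins and cytokinesis, all 30 were lower, 27 had an unadjusted p under 0.05, 7 were lower in all 8 pairs, and the median was -0.24. ANLN, the cytokinetic ring scaffold anillin, differed by -0.40 ± 0.12, CEP55, an abscission factor, by -0.36 ± 0.12, and KIF23 and CKAP2L, a spindle protein, by -0.33 ± 0.10 each. HMMR, one of the genes whose promoter is printed above, read 11.29, 11.36, 11.29 and 11.26 in control, 11.20, 11.26, 11.26 and 11.22 with SMYD2, 10.71, 10.86, 10.62 and 10.59 with RB and 10.24, 10.50, 10.14 and 10.13 with RB plus SMYD2. The RB and RB plus SMYD2 arrays did not overlap, and the HMMR difference was -0.44 with RB against -0.06 without it, or -0.25 ± 0.06 pooled (limma adjusted p = 0.642).

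Of 26 mitotic kinases and spindle checkpoint genes, 24 were lower, 16 of them at an unadjusted p under 0.05, with a median of -0.20. HASPIN, the kinase that marks centromeric histone H3, differed by -0.34 ± 0.06 and came second by p among the genes lower with SMYD2 (limma adjusted p = 0.325). It read 6.32, 6.63, 6.51 and 6.68 in control, 5.97, 6.18, 6.14 and 6.38 with SMYD2, 6.13, 5.95, 6.12 and 6.29 with RB, and 5.50, 5.74, 5.99 and 6.0 with RB plus SMYD2. HASPIN was lower in every pair, by -0.37 without RB and -0.32 with it, so that in this gene the difference was as large without RB. NEK2, a kinase of centrosome separation, differed by -0.36 ± 0.09, MAD2L1, the checkpoint protein MAD2, by -0.32 ± 0.11 and FBXO5, the APC/C inhibitor EMI1, by -0.32 ± 0.08. MAD2L1 was at -0.20 without SMYD2 array 1. Of 31 kinetochore and centromere genes, 30 were lower and 21 had an unadjusted p under 0.05, with a median of -0.21. CENPE, a kinetochore motor, differed by -0.37 ± 0.13, and the kinetochore genes CENPQ, SKA1 and NUF2 by -0.31 each. The split by RB was wide for SKA1, at -0.06 without RB and -0.56 with it, and small for CENPQ, at -0.30 and -0.32, although CENPQ was -0.18 without SMYD2 array 1.

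Condensin and repair genes were lower too. Of 18 condensin and chromosome structure genes, 17 were lower and 12 had an unadjusted p under 0.05, with a median of -0.14. NCAPG2 and NCAPG, condensin subunits, differed by -0.31 ± 0.08 and -0.26 ± 0.07, and the condensin ATPases SMC2 and SMC4 by -0.29 ± 0.10 and -0.27 ± 0.09. In the list of homologous recombination and Fanconi repair, 22 of 25 genes were lower and 11 had an unadjusted p under 0.05, again with a median of -0.14, and 0 were lower in all 8 pairs. FANCI, of the complex that is ubiquitinated at crosslinks, differed by -0.29 ± 0.07, RAD51AP1 by -0.29 ± 0.10, the checkpoint kinase CHEK1 by -0.26 ± 0.10 and RAD54B by -0.24 ± 0.10. The CHEK1 probe sets disagreed: 3 of 4 were lower, and the dimmest, at 5.53 on average, was 0.25 higher with SMYD2 and higher in all 8 pairs. FANCI was among the 12 genes with the smallest p on the lower side.

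Promoters of these lists were searched on both strands in the 100 bases before the annotated start. Of 15384 tested genes with a RefSeq promoter, 3.24% held the CHR letters TTTGAA, 20.4% held CCAAT and 3.01% held TTTNNCGC, the core of an E2F site. Of the 180 matched cell cycle and repair genes, 16.1% held TTTGAA, 47.2% CCAAT and 12.8% TTTNNCGC. Among the 19 matched genes of the lists that were lower in all 8 pairs, 7 held TTTGAA (36.8%), 11 held CCAAT (57.9%) and 2 held TTTNNCGC (10.5%). The 7 with TTTGAA were the 4 printed above and KIF11, NCAPG and SMC4. The genes lower in all 8 pairs were chosen by that outcome and came unevenly from the lists. Of the 22, 7 were in the spindle list, 5 among mitotic kinases and 0 in the repair list. Shares for the mitotic lists alone were not taken, so the higher TTTGAA share cannot be tied to SMYD2. A match is a string of letters and not a measured binding site, and no test was made of these shares.

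Histone genes lay on the other side. Replication-dependent histones are made in S phase without a poly(A) tail. Of 36 measured, 32 had a higher mean with SMYD2, against 10870 of all 19775 genes, and their median was 0.08. At an unadjusted p under 0.05 there were 8, all of them higher, where 3.78% of all genes were higher. None was higher in all 8 pairs, where 1.19% of all genes were. H2AC8 was the histone with the smallest p. It read 7.95, 7.32, 7.43 and 7.28 in control, 8.35, 7.73, 7.24 and 7.54 with SMYD2, 8.16, 7.82, 7.69 and 7.86 with RB, and 8.66, 8.14, 8.31 and 8.45 with RB plus SMYD2. It was higher in 7 of 8 pairs and differed by 0.36 ± 0.09 (limma adjusted p = 0.642). H4C8 differed by 0.29 ± 0.11, the linker histone H1-2 by 0.27 ± 0.08 and H2AC17 by 0.25 ± 0.09. H4C8 and H2AC17 were level without RB (0.07 and 0.00) and higher with it (0.50 and 0.49). Histone genes are near copies of each other, and their probe sets can share targets.

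**Figure D3:**
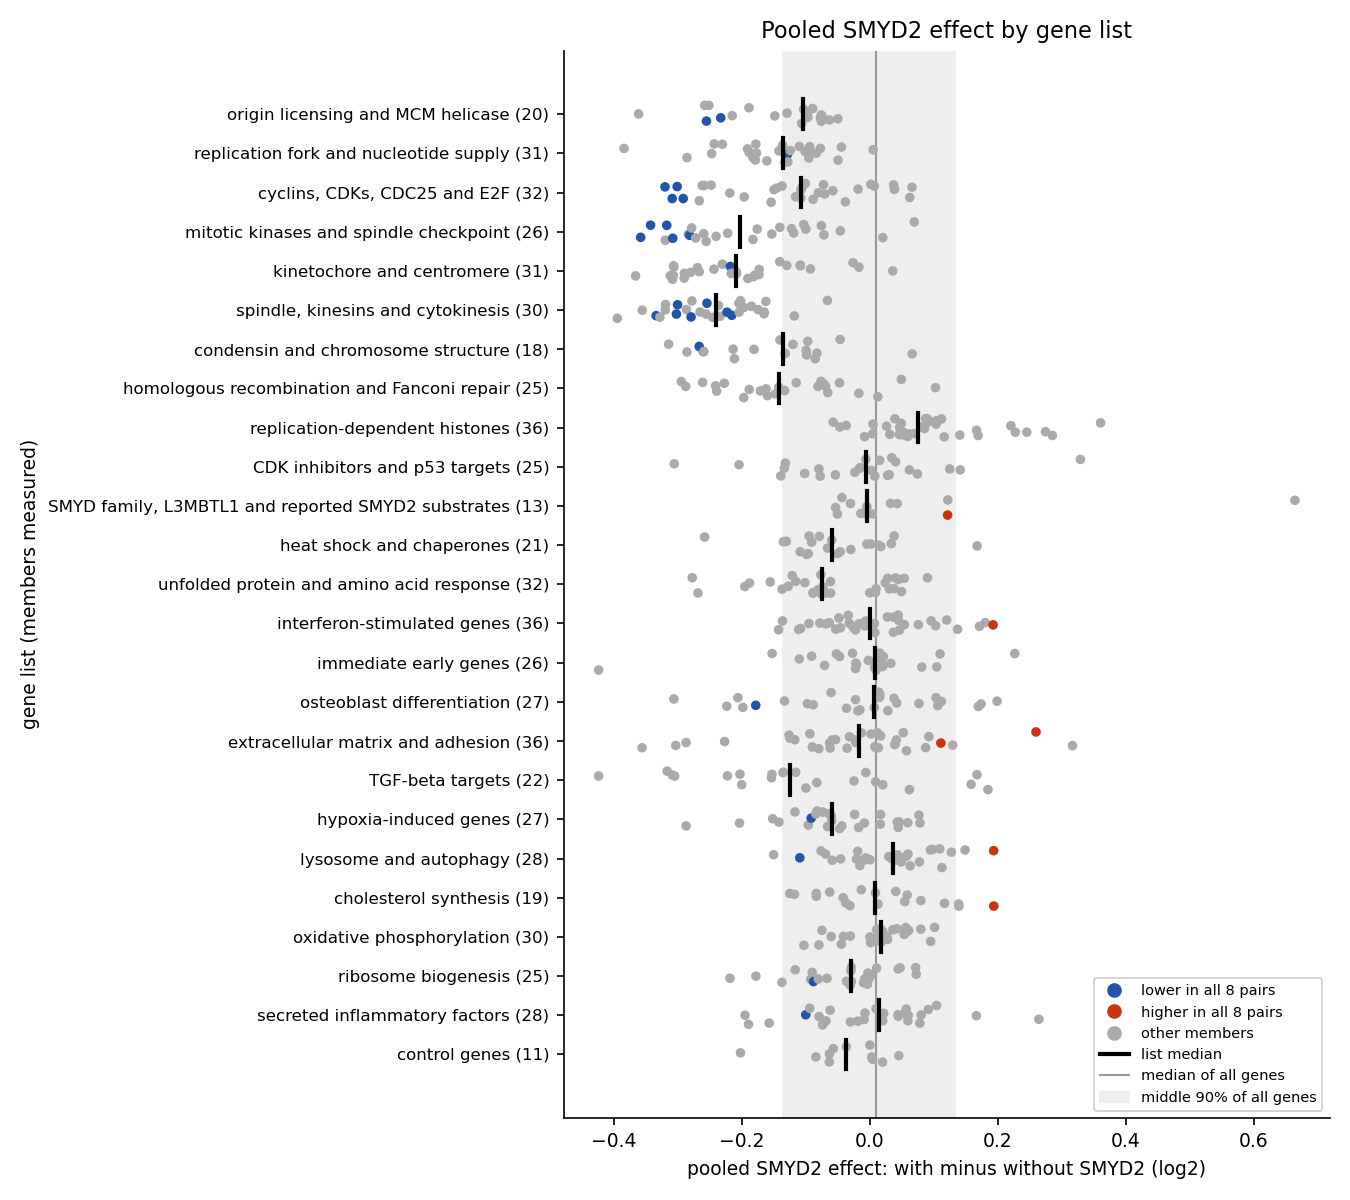
Pooled SMYD2 difference (x axis, log2) of every measured member of 25 gene lists (rows, with the number measured). Each point is a gene, blue where lower and red where higher in all 8 pairs; the short black bar is the list median, the grey line the median of all 19775 genes and the grey band their middle 90%. The medians of the 8 cell cycle and repair lists lie between -0.24 and -0.11 and that of the histones at 0.08, while RB1 is the point at 0.66.

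The genes with the smallest p mixed cell cycle and other genes. CXCL13, a chemokine that attracts B cells, read 8.12, 9.73, 10.41 and 10.28 in control, 7.42, 9.78, 9.95 and 9.90 with SMYD2, 8.19, 9.81, 10.22 and 10.26 with RB and 7.61, 9.39, 9.73 and 9.86 with RB plus SMYD2. All 4 arrays numbered 1 were low, and within numbers CXCL13 was lower with SMYD2 in 7 of 8 pairs, by 0.42 ± 0.07 on average (-0.37 without RB and -0.47 with it). CCDC150, a gene of a coiled-coil protein, was lower in all 8 pairs and differed by -0.40 ± 0.08. FGF13, an intracellular FGF family member that acts on sodium channels, differed by -0.35 ± 0.08. The zinc finger gene ZNF519 differed by -0.36 ± 0.09, with 1 of its 3 probe sets on that side. LOX, which crosslinks collagen, differed by -0.29 ± 0.07 and AFG2A, an AAA ATPase of ribosome assembly, by -0.28 ± 0.07. HECW2, a ubiquitin ligase, and CENPF, a kinetochore protein, differed by -0.26 and -0.31, each with 2 of 3 probe sets on that side.

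On the higher side the smallest p were those of TMEM182, a membrane protein gene, at 0.25 ± 0.05, and of the kinase gene PAK5 at 0.23 ± 0.05, both dim and higher in all 8 pairs. PAK5 had 1 of 2 probe sets on that side, and its more variable probe set differed by -0.12. CLEC11A, a secreted osteogenic factor, differed by 0.41 ± 0.10 and was higher in 7 of 8 pairs, with all 3 probe sets on that side. MCM3AP, a factor of mRNA export, differed by 0.20 ± 0.05, with 3 of 5 probe sets on that side. The genes ARMC12 (0.25) and CCDC71 (0.22) and the noncoding or uncharacterised genes ZNF295-AS1 (0.24), LOC105370549 (0.22) and ZBTB46-AS1 (0.22) completed the higher side with H2AC8, FGFBP2 and RB1. Leaving out SMYD2 array 1 brought forward PPFIA4 (-0.25), PEG10 (-0.26), CDT1 (-0.25), EFNB2 (-0.21) and CHST3 (-0.21) on the lower side. CDT1 is a licensing factor and PEG10 an imprinted gene derived from a retrotransposon. On the higher side it brought forward RHD (0.27), ZNF561-AS1 (0.29), the Wnt pathway factor LEF1 (0.18), LINC02912 (0.21) and GRM2 (0.23). None passed in either additive fit.

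With each of the 8 pairs as its own block, in place of the additive terms, limma called 10 genes (0.0506% of those tested, 2213 or 11.2% at an unadjusted p under 0.05). This fit removes the differences between pairs that RB status and replicate number do not add up to. The estimates are the same as in the additive fit, and only their errors differ. Of the 10, 7 were higher and 3 lower with SMYD2. Except for CXCL13, all of them had the same sign in 8 of 8 pairs.

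CFD encodes complement factor D, a serine protease of the alternative pathway. It read 10.28, 9.41, 9.92 and 9.97 in control, 11.07, 9.78, 10.24 and 10.38 with SMYD2, 10.48, 10.08, 11.24 and 11.42 with RB, and 11.09, 10.61, 11.73 and 11.84 with RB plus SMYD2. The arrays with and without SMYD2 overlapped, but within pairs CFD was higher by 0.33 to 0.79, and it rose by 0.49 ± 0.05 in the fit by pairs (limma adjusted p = 0.000605, and 0.642 in the additive fit). KANK4, of a family of cytoskeletal regulators, read 10.40, 10.0005, 8.51 and 8.87 in control, 10.63, 10.16, 9.12 and 9.35 with SMYD2, 10.02, 9.81, 9.76 and 9.87 with RB and 10.58, 10.45, 10.39 and 10.25 with RB plus SMYD2. The 4 control arrays spread more widely than any pair differed, and within pairs KANK4 was higher by 0.16 to 0.64. KANK4 rose by 0.46 ± 0.06 in the fit by pairs (limma adjusted p = 0.0045). The CFD difference was 0.47 without RB and 0.51 with it, and that of KANK4 was 0.37 and 0.55.

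NGFR, the low-affinity neurotrophin receptor, rose by 0.45 ± 0.06 in the fit by pairs (limma adjusted p = 0.018), with pair differences of 0.20 to 0.73. SCUBE3, a secreted glycoprotein of bone, rose by 0.46 ± 0.07 (limma adjusted p = 0.0265), with 3 of 4 probe sets on that side, and SERPINI1, the protease inhibitor neuroserpin, by 0.44 ± 0.07 (limma adjusted p = 0.0246). COL6A1, a chain of collagen VI, rose by 0.26 ± 0.04 with all 8 of its probe sets on that side (limma adjusted p = 0.0246). FGFBP2, a secreted FGF-binding protein gene and one of the brightest on the array at 13.43 on average, rose by 0.23 ± 0.04 (limma adjusted p = 0.0232). In the RB pairs, whose members were both transfected, NGFR was higher by 0.33 to 0.73 and SCUBE3 by 0.36 to 0.76. There SERPINI1 was higher by 0.12 to 0.61, COL6A1 by 0.28 to 0.43 and FGFBP2 by 0.09 to 0.34.

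On the lower side, CAPSL, a calcium-binding protein gene, fell by 0.43 ± 0.07 in the fit by pairs (limma adjusted p = 0.0232). It read 5.75, 6.28, 7.09 and 6.91 in control, 5.41, 6.10, 6.46 and 6.19 with SMYD2, 6.02, 6.58, 6.0 and 6.07 with RB and 5.6, 6.13, 5.54 and 5.86 with RB plus SMYD2. CXCL13 fell by 0.42 ± 0.06 (limma adjusted p = 0.0232) and NEK2 by 0.36 ± 0.06 (limma adjusted p = 0.0361). NEK2, with both probe sets lower, was the only member of the cell cycle lists among the 10.

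These calls depended on single pairs, named here control pairs (SMYD2 with control) and RB pairs (RB plus SMYD2 with RB). With each pair left out in turn, an alternative chosen after seeing the data, limma called 2 to 28 genes. CFD and KANK4 were called in all 8 cases, and they were the only calls without RB pair 1, RB pair 3 or RB pair 4. Without the pair of SMYD2 array 1, 9 genes were called, all of them among the 10, and NEK2 was not (limma adjusted p = 0.0638). There were 28 calls without control pair 4, 22 without control pair 5 and 20 without RB pair 5.

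**Figure D4:**
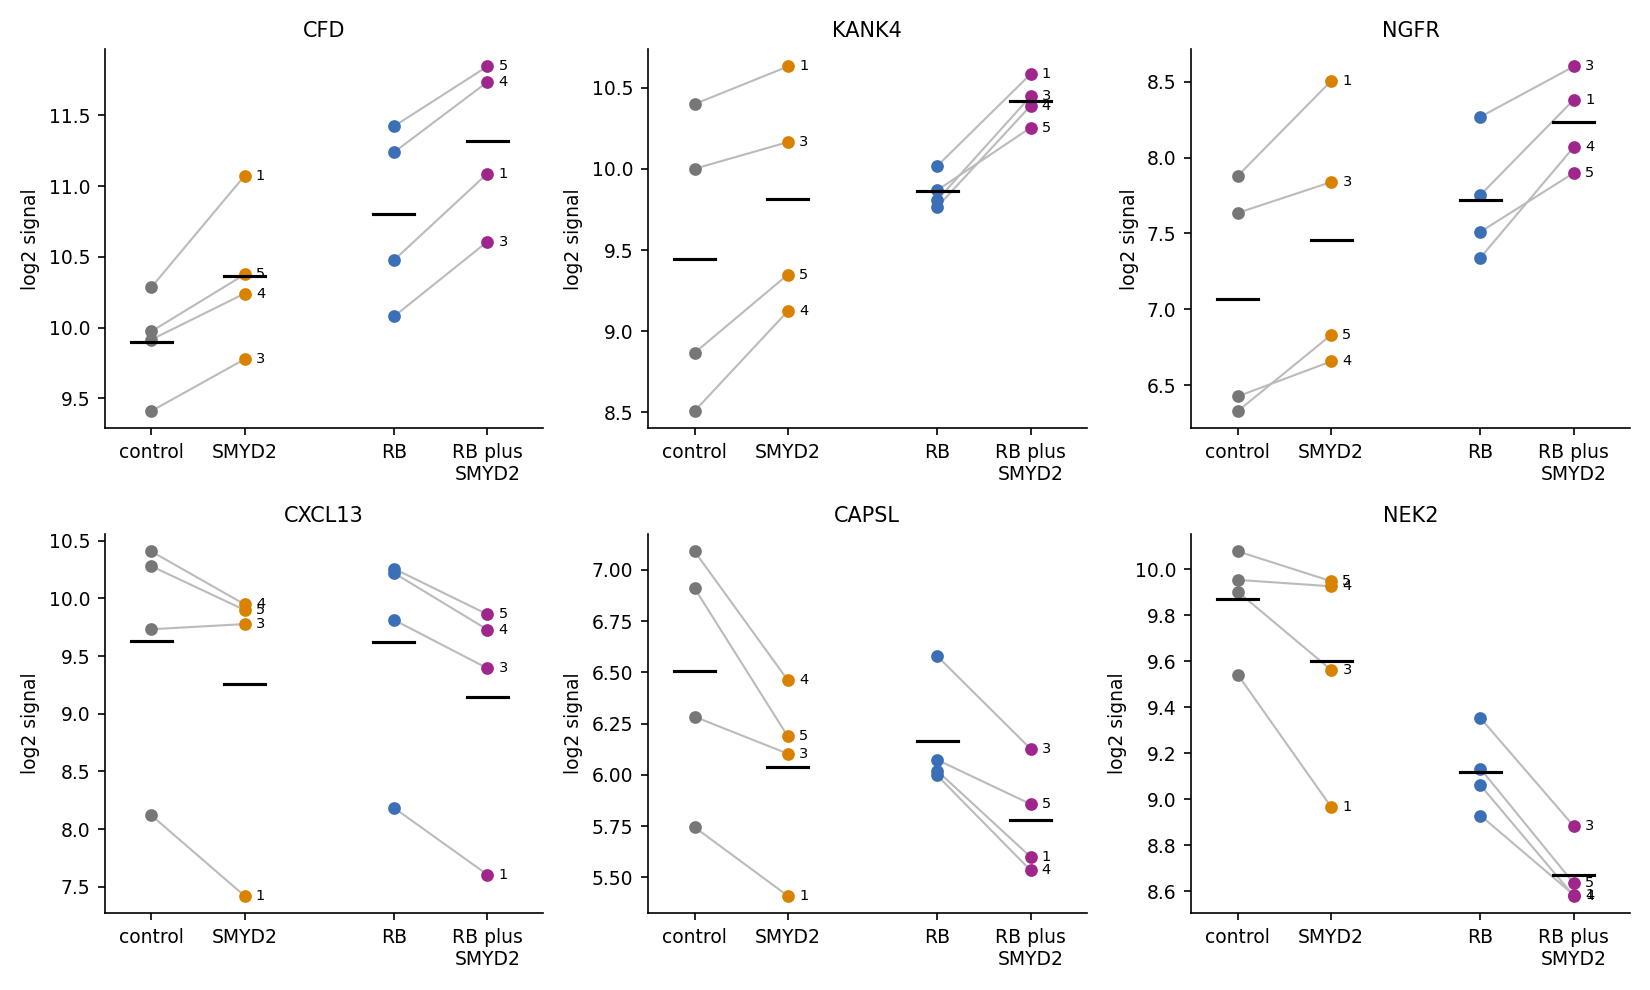
Log2 signal of 6 of the genes called in the fit by pairs on each of the 16 arrays. Points are arrays, small numbers are replicate numbers, grey lines join the arrays of a pair and black bars are group means; the y axes do not start at 0. CFD, KANK4 and NGFR are higher with SMYD2 in all 8 pairs, CAPSL and NEK2 lower in all 8 and CXCL13 lower in 7, while the groups overlap across replicate numbers.

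The SMYD2 effects in cells without and with RB share no array. Across the 19775 genes they correlated weakly (Pearson r = 0.23, Spearman rho = 0.19), and 56.2% of genes had the same sign. Among the 9888 genes above the median level these were 0.32, 0.28 and 58.8%. Genes are not independent replicates, and both effects come from arrays with the same replicate numbers. CPLX2, a regulator of synaptic vesicle release, and PSTPIP2, an actin-associated adaptor, had the smallest p for a difference between the effects, with opposite signs at the RB levels. CPLX2 differed by -0.19 without RB and 0.37 with it, and PSTPIP2 by 0.39 and -0.23. UCP3, a mitochondrial carrier, differed by -0.15 and 0.35. The kinetochore gene SPC24 differed by 0.08 and -0.47 and CKS2, a CDK-binding protein, by 0.03 and -0.30. None of the 5 passed for that difference (limma adjusted p = 0.993).

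**Figure D5:**
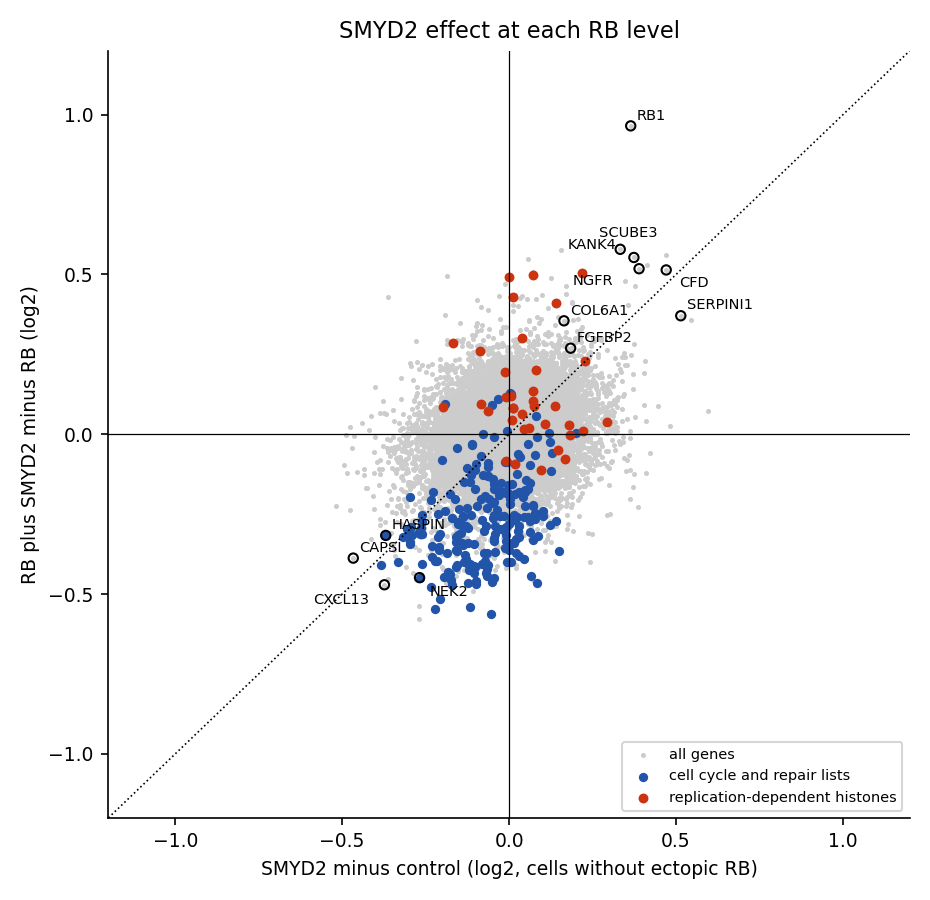
SMYD2 difference in cells without ectopic RB (x axis, SMYD2 minus control, log2) and with it (y axis, RB plus SMYD2 minus RB, log2); each point is a gene and the dotted line marks equal differences. Blue points are the 213 cell cycle and repair genes, red points the 36 histone genes, and circled genes are named. Most blue points lie below 0 on the y axis and around 0 on the x axis (medians -0.28 and -0.06), while CFD, HASPIN, CAPSL and CXCL13 lie near the dotted line.

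The RB difference was read from the same 16 arrays and is given beside that of SMYD2. With RB status as the contrast of the additive fit, 2011 genes were called lower (10.2%) and 2110 higher (10.7%). Of the 213 cell cycle and repair genes, 195 fell with RB and 2 rose, with a median difference of -0.68 against the -0.17 of SMYD2. CFD, NGFR, SERPINI1, COL6A1 and KANK4 rose with RB by 0.93, 0.71, 0.90, 0.69 and 0.51 (limma adjusted p up to 0.027), so that RB and SMYD2 differences of these genes had the same sign. KANK4 did not rise evenly: RB against control was lower in replicates 1 and 3 and higher in replicates 4 and 5. These genes were picked from the 10 called by pairs. Control cells, the only ones not transfected, lay on the side without RB and on the side without SMYD2. The RB and SMYD2 differences therefore each hold part of any transfection difference, and its part in the shared sign was not tested. The RB differences of SCUBE3, FGFBP2, CAPSL and NEK2 are not given here. CXCL13 differed by -0.06 between cells with and without RB and CCDC150 by -0.07, and neither passed (limma adjusted p = 0.615 and 0.652). FGF13 and LOX went the other way, 0.47 and 0.37 higher with RB and lower with SMYD2.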

How the data were processed

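The deposited log2 signals of 54675 probe sets on 16 arrays were made by the authors with RMA, per the submitters' processing notes, which give no version. RMA corrects background, normalizes by quantiles and summarises probes. The sources used here do not say whether the quantiles were matched over all arrays at once. With no detection calls, dim probe sets may hold background only, and precision is limited by the number of arrays.

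Of the probe sets, 41097 carried 1 gene symbol in the platform annotation (41043 matched RefSeq), 1801 several and 11721 none, and 62 were controls. The brightest set per symbol left 19775 genes. The other 13522 non-control sets were tested apart (0 called).

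Differences were fitted with limma 3.58.1 (R 4.3.3; lmFit, then eBayes with a trend) on SMYD2, RB and replicate number, two-sided, with Benjamini-Hochberg adjustment over all genes and a threshold of 0.05. Errors are standard errors of that fit unless given as SD. Single readings used an exact sign-flip permutation test over 8 pairs. It treats the 8 pairs as independent, although pairs without and with RB share replicate numbers, so its p-values may be too small. The deviations of same-numbered arrays from their group means correlated at 0.145 to 0.705 for control with SMYD2 and RB with RB plus SMYD2, so the numbers were taken to pair arrays. The pairing comes from the labels' replicate numbers.

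The members of the comparison and the 32 gene lists were chosen with earlier results of these data known. Named genes were RB1, SMYD2 and L3MBTL1, the 12 with the smallest p each way (no gene passed), 5 more each way without SMYD2 array 1, 5 for the interaction and the 4 largest differences of each list described. Genes called with the pairs as blocks are named as well. Promoters came from RefSeq (GRCh38.p14), the only coordinates given. On simulated data with 19775 genes, the additive fit recovered 59% of 100 genes changed by 0.3 and 95% of 100 changed by 0.6, with 7 false calls. The fit by pairs recovered 50% and 96%, with 10 false calls. The simulated noise was drawn independently for each array around the additive fit. It lacked the differences between pairs that the data hold, so these rates may not apply to these arrays. Alternatives covered scaling, probe set choice, dim genes, weights, blocks, the ACTB ratio as a covariate and the omission of single arrays. Plots used matplotlib 3.10.9.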

Additional observations from a re-analysis of the deposited data

Results flagged for a closer look

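Single arrays or pairs lay far from the rest of their group in 14 readings, by Dixon's criterion at the 95% level. It was applied to 52 groups of 4 arrays, of which 2 exceeded it, and to 127 sets of 8 pair differences, of which 12 did. Chance alone passes about 5% of such groups. CXCL13 read 7.42 on SMYD2 array 1, where the nearest SMYD2 array read 9.78. CCDC150 read 7.73 on RB array 3, where the nearest RB array read 8.69.

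Among pair differences, the pair of SMYD2 and control array 1 was lowest for EFNB2 (-0.85), DBF4 (-0.69), CCNB1 (-1.10), MAD2L1 (-1.03), CENPQ (-1.01) and FAS (-0.80), for the median of the osteoblast differentiation list (-0.0929), and highest for IRF7 (0.52). For CCNB1, MAD2L1 and CENPQ the nearest other pair stood at -0.46, -0.40 and -0.37. The pair of SMYD2 and control array 3 was highest for CXCL13 (0.0447) and lowest for COL6A2 (-0.24). The pair of SMYD2 and control array 4 was lowest for H2AC8 (-0.19) and highest for the median of the control genes (0.0329). All 12 lay among the pairs without RB. SMYD2 array 1 also had the highest ACTB ratio (3.53), and the part of RNA integrity in these readings was not tested.

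CPLX2 and PSTPIP2 had opposite differences in the cells without and with RB, in all 4 pairs of each. The CPLX2 difference was -0.19 without RB and 0.37 with it, and that of PSTPIP2 was 0.39 and -0.23. The interaction was tested and neither passed (limma adjusted p = 0.993).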

How the results depend on the processing

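The additive count of 0 genes was 0 under the other settings of scaling, probe set choice, dim genes and model, except for 10 with the 8 pairs as blocks and 1, CXCL13, with array weights (limma adjusted p = 0.0159). With each array left out it ranged from 0 to 1, the 1 being CXCL13 without SMYD2 array 3 (limma adjusted p = 0.0139). Without the replicate block it was 0, with 916 genes at an unadjusted p under 0.05 and a smallest limma adjusted p of 0.956. The interaction count was 0 in every fit made of it. With the pairs as blocks, leaving out each pair gave 2 to 28 calls. Of 3594 named-gene values under alternatives, 3579 kept their direction and side of the threshold, 12 passed it and 3 turned direction: SMYD2 at -0.0155 (mean of all probe sets) and -0.0498 (most variable probe set), and PAK5 at -0.12 (most variable probe set). The 12 are the 10 genes called by pairs and CXCL13 in the other 2 settings named above. Because no gene passed in the main fits, no value could lose a pass, and these counts do not measure stability. The median of the SMYD family list ranged from -0.0133 to 0.0272 with each array left out. The 3′ to 5′ ratio of the GAPDH control probe sets differed by -0.0038 with SMYD2 over the 8 pairs (exact sign-flip permutation p = 0.758, 0.855 adjusted over the 13 checks). With each pair left out that difference ranged from -0.0194 to 0.0088 (exact sign-flip permutation p = 0.0313 at -0.0194, without the pair of SMYD2 array 1, chosen after seeing the data). The causes were not tested. The number of arrays limits precision, with a median standard error of 0.06.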

Other observations

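Outside the cell cycle, the lowest list median was that of 22 TGF-beta targets, at -0.13 with 16 lower, where the median of all genes was 0.01 and that of the origin licensing list -0.11. CCN2, a matricellular growth factor, differed by -0.42 ± 0.15 and was lower in 7 of 8 pairs, the ligand TGFB2 by -0.32 ± 0.13, ID1, an inhibitor of differentiation factors, by -0.31 ± 0.16 and the actin-binding TAGLN by -0.31 ± 0.19. Their shift varied with single arrays, and without SMYD2 array 1 the list median was -0.07 and TAGLN differed by -0.12. TGFB2 had 3 of 5 probe sets on the lower side and TAGLN 2 of 3. The unfolded protein and amino acid response had a median of -0.07 over 32 genes, and -0.04 without that array. ASNS, asparagine synthetase, differed by -0.28 ± 0.12 and the cystine carrier SLC7A11 by -0.27 ± 0.10. Matrix genes went both ways, with COL12A1 at -0.36 ± 0.14, THBS1 at -0.30 ± 0.26 (5 of 7 probe sets lower) and COL6A2 at 0.32 ± 0.16. Among CDK inhibitors and p53 targets, with a median of -0.01, the CDK inhibitor CDKN1C differed by 0.33 ± 0.14 and was higher in 7 of 8 pairs, with 4 of 5 probe sets on that side. MSX2, a homeobox factor of bone, differed by -0.31 ± 0.11 in the osteoblast list, whose median was 0.01. Interferon-stimulated genes had a median of 0.00, with IRF7 at 0.19 ± 0.09 and higher in all 8 pairs. None of these genes passed in the limma fit.

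Medians of the heat shock, hypoxia, lysosome, cholesterol, oxidative phosphorylation, ribosome biogenesis, secreted factor, immediate early and control gene lists lay between -0.06 and 0.04. That of the SMYD family, L3MBTL1 and reported SMYD2 substrates was -0.0048 over 13 genes.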
